A study of Mus musculus with 6 samples.

Results

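The genes examined were the co-inhibitory receptors Ctla4, Pdcd1, Lag3, Havcr2, Tigit, Cd101, Cd160 and Btla, the receptor ligand Cd200, and Cd274, which encodes PD-L1. They were chosen by symbol and found by gene ID, 10 of 37187 genes in the raw-count table, and each was matched in the normalized-count and FPKM tables. The RNA came from Tregs, the regulatory CD4 T cells that depend on the transcription factor Foxp3, which had been sorted as CD4+CD25+GITR+ cells. The KO group was 3 libraries (replicates 4, 5 and 6) from il33-/- mice in the C57BL6 background, and the WT group was 3 libraries (replicates 1, 2 and 3) from C57BL6 mice. All mice, in both groups, had received 300000 B16.F10 melanoma cells under the skin, and their tumour-draining lymph nodes were taken on day 14. Age, sex, the way the il33 allele was made, and whether a library came from 1 animal or from pooled animals are not stated by the labels. The p-values therefore measure the spread between these libraries, which may be technical. The comparison asks how the co-inhibitory receptor transcripts of draining-node Tregs differ when the host lacks IL-33, an alarmin cytokine of barrier and stromal cells that Tregs can sense through the receptor ST2.

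Co-inhibitory receptors are surface proteins that lower T cell activation, mostly by competing for shared ligands or by recruiting phosphatases to the antigen receptor. Several are carried constitutively by Tregs, where CTLA-4 removes CD80 and CD86 from antigen-presenting cells and TIGIT marks strongly suppressive cells. PD-L1, the ligand of PD-1, is made by antigen-presenting cells, by tumours and by activated T cells themselves.

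Total counts were 18071928 to 21165063 per library. Il33 (chromosome 19, 29925114 to 29960718, plus strand) had 3, 8 and 2 raw counts in KO libraries and 7, 0 and 9 in WT libraries, where the count of 0 allows up to 3 (counting error only). These reads check no label, since the deleted part of Il33 is not given. T lineage markers summed to 7822 to 8363 CPM (counts scaled to a common library size with TMM factors) in KO and 7299 to 7798 CPM in WT, and the 9 Treg markers in the files to 4138 to 4490 CPM in KO and 3577 to 4092 CPM in WT. Foxp3, the defining Treg gene, averaged 207 ± 8.78 FPKM in KO and 188 ± 11.7 FPKM in WT (SD, n = 3 each). The libraries differed in B cell transcript. The 18 B cell markers in the files summed to 1403, 1724 and 1389 CPM in KO replicates 4, 5 and 6, and to 3754, 1780 and 3079 CPM in WT replicates 1, 2 and 3. All 18 had a negative log2 fold change (KO over WT), with a median of -1.84, and 1 of them, Vpreb3, passed the test. WT replicate 2 stood apart from the other WT libraries and near the KO libraries in this sum. Myeloid and dendritic cell markers summed to 91.6 to 109 CPM in KO and 109 to 135 CPM in WT, and CD8 T and NK cell markers to 45.0 to 55.4 CPM in KO and 55.5 to 63.0 CPM in WT. Stromal and endothelial markers summed to 245 to 255 CPM in KO and 210 to 229 CPM in WT, nearly all of it Pecam1, with Ccl19 at 0. Melanoma markers summed to 31.9 to 36.8 CPM in KO and 22.9 to 30.7 CPM in WT, most of it Pmel. Pmel passed the test, higher in KO, at a log2 fold change of 0.42 (edgeR adjusted p = 0.0376). The defining genes Tyr, Tyrp1 and Dct were at 0 in all 6 libraries.

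In bulk RNA, more cells of a type and more transcript per cell cannot be told apart, and this holds for every level given here. Ctla4, which encodes CTLA-4, was by far the most abundant of the 10 transcripts. Its FPKM (the deposited level per transcript length and library size) was 389, 429 and 407 in KO libraries and 247, 310.4 and 289.8 in WT libraries. Tigit came next, with 101, 122 and 116 FPKM in KO and 84.1, 105 and 88.0 FPKM in WT. Below Tigit stood Btla, with 73.5, 79.5 and 68.8 FPKM in KO and 106, 72.5 and 91.2 FPKM in WT. In KO these 3 were separated from each other with no overlap between libraries, while in WT the ranges of Tigit and Btla overlapped. Cd274 followed in both groups with 33.9 ± 3.04 FPKM in KO and 27.4 ± 2.48 FPKM in WT (SD, n = 3 each). Pdcd1, Lag3 and Cd200 formed a middle tier whose neighbours overlapped, with means of 24.4, 22.5 and 19.9 FPKM in KO and of 19.0, 20.9 and 18.2 FPKM in WT. Pdcd1 ranked above Lag3 in KO and below it in WT, and their ranges overlapped in each group. Cd101 averaged 13.0 FPKM in KO and 10.2 FPKM in WT. Havcr2 averaged 8.41 FPKM in KO and 9.31 FPKM in WT, and the ranges of Cd101 and Havcr2 overlapped in WT but not in KO. Cd160 was lowest, at 4.19 ± 0.411 FPKM in KO and 3.62 ± 0.464 FPKM in WT (SD, n = 3 each).

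The 10 genes thus spanned a 97.4-fold range of mean FPKM in KO and a 78.1-fold range in WT. Ctla4 stood above 99.7% of the genes with a value above 0 in KO and above 99.5% in WT, and Cd160 above 64.1% in KO and 62.1% in WT. Summed over the 10 genes, FPKM was 721 ± 32.7 in KO and 573 ± 33.5 in WT (SD, n = 3 each). Without Ctla4 the sums were 313 ± 12.8 FPKM in KO and 291 ± 5.58 FPKM in WT. Ctla4 made up 56.6 ± 0.315% of the summed FPKM in KO and 49.2 ± 2.88% in WT. Btla made up 10.2 ± 0.569% in KO and 15.8 ± 3.83% in WT.

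**Figure D1:**
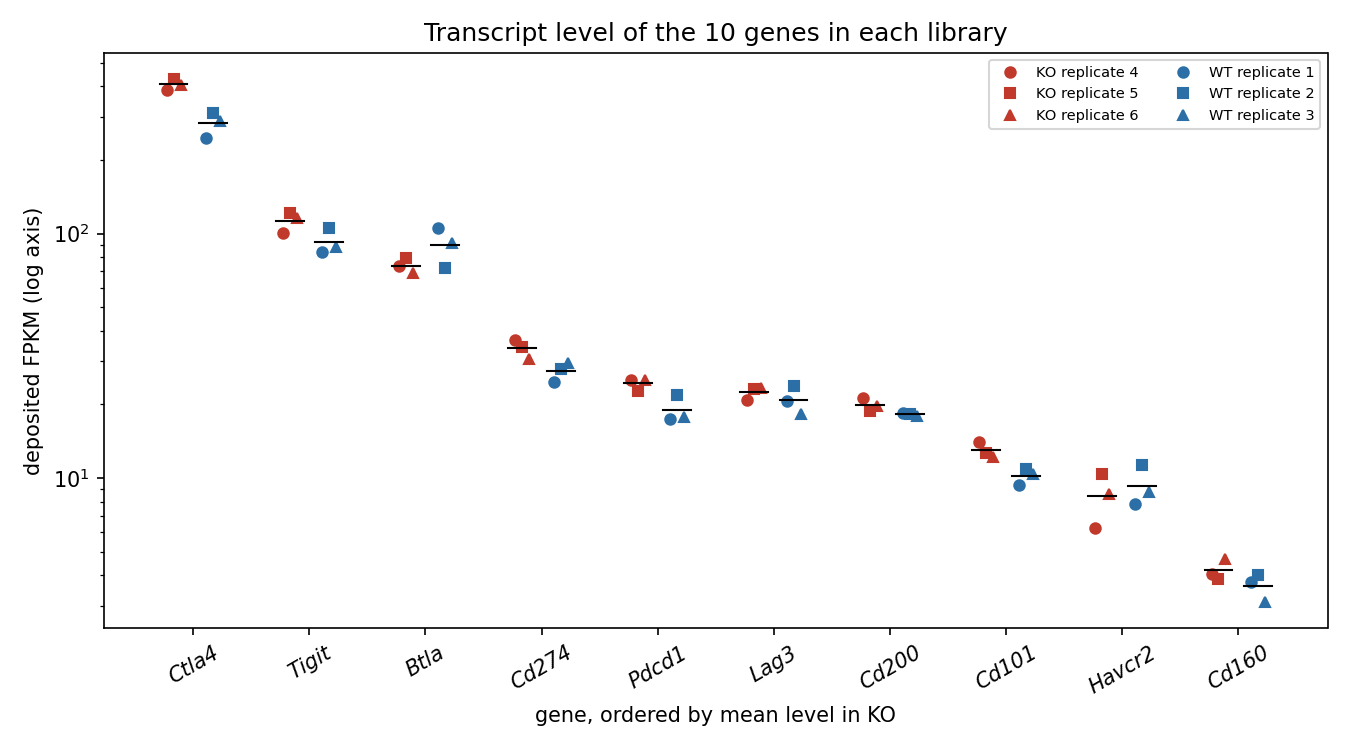
Deposited FPKM (log axis) of the 10 genes in each library, KO beside WT, ordered by mean level in KO, with the group mean as a bar. Ctla4 lies between 389 and 429 FPKM in KO and between 247 and 310.4 FPKM in WT, and Cd160 at or below 4.65 FPKM in all 6 libraries.

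Between the groups, 4 of the 10 genes were called higher in KO (Ctla4, Pdcd1, Cd101 and Cd274), 0 were called lower and 6 did not pass. A call is an adjusted p under 0.05 in edgeR's quasi-likelihood test on raw counts, two-sided, with Benjamini-Hochberg adjustment over all 13626 genes tested. Of all genes tested, 6.50% were called, 3.68% higher and 2.83% lower in KO. In data simulated with 200 changed genes, 11.4% of calls by this test were false. All 10 genes passed the filter on low counts. At an unadjusted p under 0.05 the quasi-likelihood test gave 6 of the 10 higher and 0 lower. The largest of these 6 p-values, 0.0488 for Cd200, ranked 2944 among the 13626 genes tested, so unadjusted p-values this low were common. With DESeq2 there were 5 higher and 0 lower calls, and with limma-voom there were 2 higher and 0 lower. Over all genes, DESeq2 called 545 higher and 621 lower of 14732, and limma-voom called 397 higher and 303 lower of 13626. Without KO replicate 4 the called genes were Ctla4 and Tigit, without KO replicate 5 Ctla4 and Pdcd1, and without WT replicate 1 or 3 Ctla4 alone. With a B cell marker score in the model 0 of the 10 were called. With no filter on low counts, or without WT replicate 2, Tigit was added as higher and Btla as lower. The KO and WT ranges of CPM did not overlap for 5 genes, each higher in KO (Ctla4, Pdcd1, Cd101, Cd200 and Cd274), and 13.7% of all genes tested were non-overlapping in this direction. The median log2 fold change, KO over WT, was 0.25 over the 10 genes (quartiles 0.11 and 0.34), against 0.00 over all genes tested (quartiles -0.12 and 0.13). Of the 10 values, 8 were positive and 2, those of Btla and Havcr2, were negative. The Treg markers also leaned upward, with a median of 0.19, 8 of 9 positive and 2 called higher. The T lineage markers had a median of 0.11, with 16 of 19 positive and 2 called higher.

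**Figure D2:**
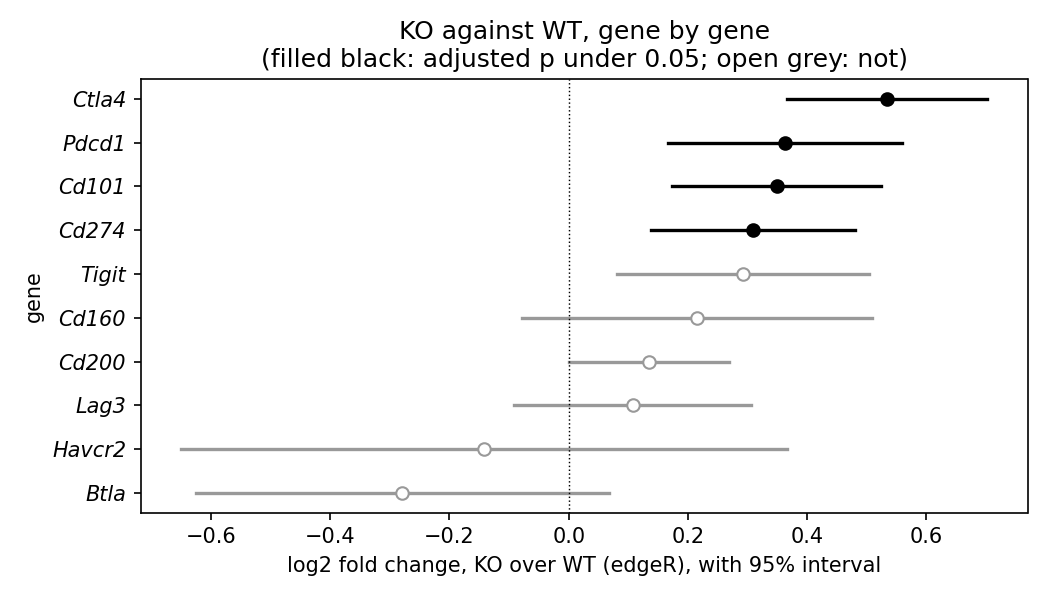
Log2 fold change of each gene, KO over WT, from edgeR, with its 95% interval; filled points passed an adjusted p under 0.05. Ctla4 has the largest value, 0.53, and the intervals of Havcr2, Btla, Lag3 and Cd160 cover 0.

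Promoter windows of the 4 called genes are shown because these genes moved in 1 direction together. Each is the 250 bases before the RefSeq start site (GRCm38.p6), written 5′ to 3′ on the gene's strand. Capitals mark matches on either strand to the NFAT letters GGAAA and, in Cd101, to the 10-base NF-kB element. NFAT and NF-kB are transcription factors switched on by antigen receptor signals.
Ctla4, chr1:60908775-60909024, plus strand: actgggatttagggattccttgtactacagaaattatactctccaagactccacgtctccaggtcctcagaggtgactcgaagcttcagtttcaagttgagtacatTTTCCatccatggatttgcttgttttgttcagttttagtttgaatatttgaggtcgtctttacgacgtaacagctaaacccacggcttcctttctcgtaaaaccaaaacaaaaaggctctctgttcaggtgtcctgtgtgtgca
Pdcd1, chr1:94052554-94052803, minus strand: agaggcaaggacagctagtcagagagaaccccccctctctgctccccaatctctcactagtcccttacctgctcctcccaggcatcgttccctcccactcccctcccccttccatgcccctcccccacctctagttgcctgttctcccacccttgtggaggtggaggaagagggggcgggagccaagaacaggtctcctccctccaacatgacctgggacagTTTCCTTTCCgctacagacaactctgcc
Cd101, chr3:101029554-101029803, minus strand: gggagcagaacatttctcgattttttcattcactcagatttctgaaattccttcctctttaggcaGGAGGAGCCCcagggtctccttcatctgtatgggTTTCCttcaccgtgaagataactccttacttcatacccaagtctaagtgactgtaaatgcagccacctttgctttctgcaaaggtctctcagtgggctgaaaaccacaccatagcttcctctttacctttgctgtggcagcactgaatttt
Cd274, chr19:29367188-29367437, plus strand: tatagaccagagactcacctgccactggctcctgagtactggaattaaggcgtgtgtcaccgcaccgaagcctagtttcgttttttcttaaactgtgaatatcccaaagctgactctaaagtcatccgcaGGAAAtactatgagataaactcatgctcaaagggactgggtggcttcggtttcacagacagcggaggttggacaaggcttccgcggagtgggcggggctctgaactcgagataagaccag
Counting -1 as the last base before the start site, the NFAT letters began at -144 in Ctla4, at -28 and -23 in Pdcd1, at -151 in Cd101 and at -120 in Cd274. These letters are common, with a match on either strand in 55.6% of 32851 RefSeq promoter windows of the same length. Of the 10 genes, 9 had a window (Lag3 was not matched), which gave 10 windows because Cd160 had more than 1. The NFAT letters were in 6 of the 9 genes, including the uncalled Tigit and Cd160. For Cd160, matches to any of the letters searched lay only in its window from 96814522, and its window from 96829352 held none. The NF-kB element was searched as GGG and CC with 5 bases of any kind between them, and was in Cd101 and Cd160 and in 45.8% of all windows. AP-1 letters (TGANTCA, 6.75% of windows) were found in Havcr2 alone and GAS letters (TTCNNNGAA, the STAT element, 7.02%) in Cd160 alone. IRF letters (2 copies of GAAA with 2 bases of any kind between them, 2.98%) and CRE letters (TGACGTCA, 1.55%) were found in none of the 9. A match is a description of letters in this window only, and the annotated Ctla4 gene begins further upstream than the RefSeq start used for its window.

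Of the 10 genes, Ctla4 had the largest fold change. CTLA-4 binds the same ligands as the co-stimulatory receptor CD28, CD80 and CD86, and takes them off antigen-presenting cells. Ctla4 (ENSMUSG00000026011, chromosome 1, 60887000 to 60915832, plus strand of GRCm38) had 909, 1002 and 959 CPM in KO libraries and 579, 724 and 679 CPM in WT libraries. Every KO library was above every WT library. On the log2 scale the fold change, KO over WT, was 0.53 (SE 0.08, 95% interval 0.37 to 0.70), a 1.45-fold higher level, with an adjusted p of 0.0022 in edgeR. It was called with any 1 of the 6 libraries left out, at adjusted p-values up to 0.0333. With WT replicate 2 as the only WT library the value was 0.40, in a fit whose spread comes from the KO libraries alone. When a B cell score, the average log2 CPM over the B cell markers, was added to the model the value was 0.35 with an adjusted p of 0.272. That score was 4.54, 4.93 and 4.19 in KO libraries and 6.81, 5.15 and 6.44 in WT libraries, so the score and the group are largely confounded.

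Cd28, the stimulating counterpart, also rose in KO, with 422, 451 and 408 CPM in KO libraries against 296, 362 and 325 CPM in WT libraries. Its value on the log2 scale was 0.38 (SE 0.07, adjusted p = 0.00817 in edgeR). The call was lost without WT replicate 3 (adjusted p = 0.0520) and with the B cell score (0.22, adjusted p = 0.516). With WT replicate 2 as the only WT library the value of Cd28 was 0.24. In FPKM, Ctla4 was 5.66, 5.84 and 6.17 times Cd28 in KO libraries and 5.14, 5.26 and 5.49 times in WT libraries. This ratio, chosen after the values had been seen and not tested, was higher in all 3 KO libraries. The ligands themselves were low in these sorted cells, Cd80 averaging 4.28 ± 1.28 FPKM in KO and 4.40 ± 0.914 FPKM in WT, and Cd86 9.43 ± 0.864 FPKM in KO and 8.62 ± 0.684 FPKM in WT (SD, n = 3 each).

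The transcripts of PD-1 and of its ligand PD-L1 were both called higher in KO. PD-1, encoded by Pdcd1, recruits the phosphatase SHP-2 to dampen antigen receptor and CD28 signals. Pdcd1 (ENSMUSG00000026285, chromosome 1, 94038305 to 94052553, minus strand) had 48.7, 43.9 and 49.2 CPM in KO libraries and 33.6, 42.3 and 34.4 CPM in WT libraries. The groups did not overlap, but WT replicate 2 came close to the lowest KO library. The log2 fold change was 0.36 (SE 0.09, 95% interval 0.17 to 0.56, edgeR adjusted p = 0.0327). Cd274 (ENSMUSG00000016496, chromosome 19, 29367455 to 29388095, plus strand) had 134, 124 and 112 CPM in KO libraries and 89.9, 102 and 108 CPM in WT libraries. Again the groups did not overlap, with KO replicate 6 and WT replicate 3 nearest to each other. Its log2 fold change was 0.31 (SE 0.08, 95% interval 0.14 to 0.48, edgeR adjusted p = 0.0369). Pdcd1lg2, which encodes the second PD-1 ligand PD-L2, had a log2 fold change of 0.00 (adjusted p = 0.992), with 8.81 ± 0.310 FPKM in KO and 8.82 ± 1.29 FPKM in WT (SD, n = 3 each). In FPKM, Pdcd1 was 0.685, 0.663 and 0.823 times Cd274 in KO libraries and 0.702, 0.782 and 0.600 times in WT libraries, with overlap and no test.

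Both calls depended on single libraries and on the test. They were lost with T lineage factors (adjusted p = 0.0709 for Pdcd1 and 0.163 for Cd274), in limma-voom (0.0533 and 0.0607) and in limma on log2(FPKM + 1) (0.0771 and 0.0981) or log2(FPKM + 0.1) (0.0735 and 0.0942). Pdcd1 lost its call without KO replicate 4 or 6 or WT replicate 1 or 3, at adjusted p-values up to 0.145 and log2 fold changes of 0.30 to 0.48 over the 6 fits. Cd274 lost it without KO replicate 4 or 5 or WT replicate 1 or 3, at adjusted p-values up to 0.136 and log2 fold changes of 0.24 to 0.37. With WT replicate 2 as the only WT library, Pdcd1 was at 0.16 and Cd274 at 0.28, and neither was called. With the B cell score added, Pdcd1 was at 0.04 and Cd274 at 0.28, neither called. Cd274 lies 537 kb from Il33 on chromosome 19. Of 15 genes tested within 1 Mb of Il33, Cd274 was called higher and Ranbp6 lower in KO, 13.3% in all, against 6.50% of all genes tested. This share counts Cd274 itself, Ranbp6 was the only other gene called, and an excess near Il33 was not tested. An effect of the altered chromosome segment on Cd274 and an effect of lacking IL-33 cannot be told apart in this design. The exons of Cd274 also overlap a gene on the opposite strand, AC119228.1, which was not found among the counted genes. The use of strand in counting is not given, so any reads from AC119228.1 cannot be told apart from those of Cd274.

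Cd101 encodes an immunoglobulin-family receptor of T cells and myeloid cells that lowers T cell activation. Cd101 (ENSMUSG00000086564, chromosome 3, 100993529 to 101029556, minus strand) had 47.0, 42.3 and 41.0 CPM in KO libraries and 31.3, 36.4 and 34.6 CPM in WT libraries. All KO libraries were above all WT libraries. The log2 fold change was 0.35 (SE 0.08, 95% interval 0.17 to 0.52, edgeR adjusted p = 0.0226). It lost its call without KO replicate 4 or 5 or WT replicate 1 or 3, at adjusted p-values up to 0.1001 and log2 fold changes of 0.29 to 0.40. With WT replicate 2 as the only WT library it was at 0.25 and with the B cell score at 0.22, neither called. It was also not called with T lineage factors (adjusted p = 0.0946) or on the FPKM scales (0.0630 and 0.0619). The summed myeloid and dendritic cell markers, at 91.6 to 109 CPM in KO and 109 to 135 CPM in WT, are given beside this gene because myeloid cells carry it, and their part in its level was not tested.

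TIGIT competes with the stimulating receptor CD226 for the nectin-family ligand CD155. Tigit (ENSMUSG00000071552, chromosome 16, 43648867 to 43664146, minus strand) had 97.3, 118 and 113 CPM in KO libraries and 81.3, 102 and 85.2 CPM in WT libraries. Here WT replicate 2 lay above KO replicate 4, so the groups overlapped. The log2 fold change was 0.29 (SE 0.10, 95% interval 0.08 to 0.50), and it did not pass (edgeR adjusted p = 0.105, unadjusted p = 0.0117). It passed in DESeq2 at an adjusted p of 0.0344, and in edgeR without KO replicate 4 at 0.0380 or without WT replicate 2 at 0.00557. With WT replicate 2 as the only WT library it was 0.11, and with the B cell score 0.067 (adjusted p = 0.922). Cd226 averaged 25.1 ± 2.17 FPKM in KO and 21.7 ± 1.40 FPKM in WT (SD, n = 3 each). Its log2 fold change of 0.21 did not pass (edgeR adjusted p = 0.111). In FPKM, Tigit was 3.65, 5.15 and 4.85 times Cd226 in KO libraries and 3.99, 4.53 and 4.26 times in WT libraries. These ratios overlapped and were not tested.

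Lag3, Havcr2 and Cd160 did not pass the test, and their groups overlapped. LAG-3, a CD4-related receptor of MHC class II, is encoded by Lag3 (ENSMUSG00000030124, chromosome 6, 124904361 to 124911705, minus strand), which had 44.2, 48.9 and 49.8 CPM in KO libraries and 43.8, 50.3 and 38.6 CPM in WT libraries. Lag3 had a log2 fold change of 0.11 (95% interval -0.09 to 0.31, edgeR adjusted p = 0.559). TIM-3, which binds galectin-9 and phosphatidylserine, is encoded by Havcr2 (ENSMUSG00000020399, chromosome 11, 46454935 to 46481255, plus strand). It had 17.1, 28.4 and 23.6 CPM in KO libraries and 21.4, 30.8 and 24.1 CPM in WT libraries, the widest spread within groups relative to its level. Its log2 fold change was -0.14 (95% interval -0.65 to 0.37, edgeR adjusted p = 0.769), and the interval covers changes of either sign. The sign turned to 0.034 without KO replicate 4 and to 0.023 without WT replicate 2. CD160, a receptor of the herpesvirus entry mediator HVEM that is best known on NK and CD8 T cells, is encoded by Cd160 (ENSMUSG00000038304, chromosome 3, 96798763 to 96829351, minus strand). It had 10.8, 10.2 and 12.4 CPM in KO libraries and 9.92, 10.6 and 8.25 CPM in WT libraries. Its log2 fold change was 0.22 (95% interval -0.08 to 0.51, edgeR adjusted p = 0.400), and counting error alone was 6.89% at this level, against 0.780% for Ctla4. Its exons overlap Pdzk1 on the opposite strand, which had 29 counts over all 6 libraries.

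BTLA, the other inhibitory receptor of HVEM, is carried by B cells as well as T cells. Btla (ENSMUSG00000052013, chromosome 16, 45224315 to 45257670, plus strand) had 240.4, 259.8 and 226 CPM in KO libraries and 346, 237 and 299 CPM in WT libraries. WT replicates 1 and 3 were above all KO libraries and WT replicate 2 was among them. The log2 fold change was -0.28 (SE 0.14, 95% interval -0.63 to 0.07), and it did not pass (edgeR adjusted p = 0.333). Without WT replicate 2 it was called lower in KO, at -0.41 with an adjusted p of 0.00262. With WT replicate 2 as the only WT library it was 0.03, and with the B cell score added 0.22, neither called. The same WT replicates 1 and 3 held the most B cell marker transcript, 3754 and 3079 CPM against 1780 CPM in WT replicate 2, and the part of B cells in the Btla level was not tested. Tnfrsf14, which encodes HVEM, averaged 29.8 ± 3.32 FPKM in KO and 35.3 ± 2.79 FPKM in WT (SD, n = 3 each). Its groups overlapped, and its log2 fold change of -0.24 did not pass (edgeR adjusted p = 0.133).

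**Figure D3:**
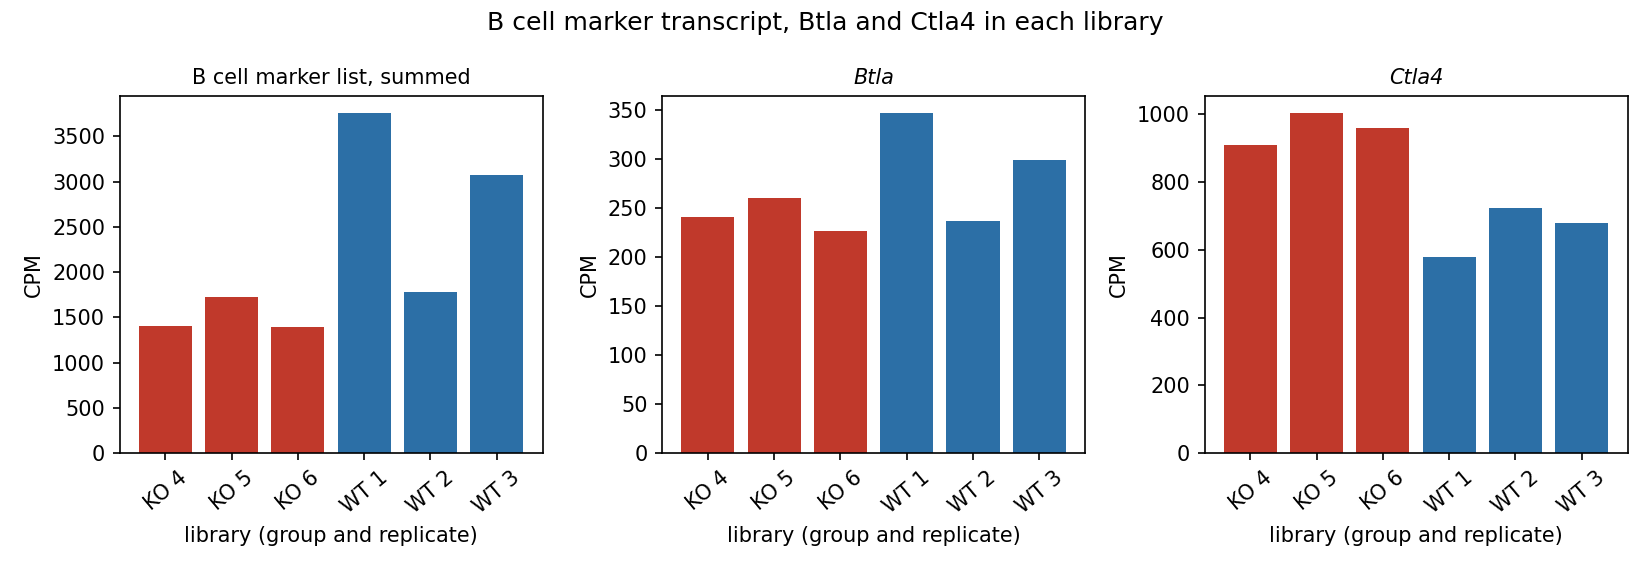
CPM of the summed B cell markers, of Btla and of Ctla4 in each library, KO libraries left of WT libraries. WT replicates 1 and 3 are highest for the B cell sum (3754 and 3079 CPM) and for Btla (346 and 299 CPM), while Ctla4 is higher in every KO library than in every WT library.

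CD200 restrains myeloid cells through the receptor CD200R1, and B cells carry it too. Cd200 (ENSMUSG00000022661, chromosome 16, 45382135 to 45409053, minus strand) had 70.7, 62.8 and 66.3 CPM in KO libraries and 61.5, 60.6 and 60.0 CPM in WT libraries. The ranges did not overlap, with WT libraries within a narrow band. The log2 fold change was 0.13 (SE 0.06, 95% interval 0.00 to 0.27) and did not pass (edgeR adjusted p = 0.226).

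Within the WT group the libraries were not equally placed. WT replicate 2 was the highest WT library for 7 of the 10 genes (Ctla4, Pdcd1, Lag3, Havcr2, Tigit, Cd101 and Cd160), WT replicate 1 for Btla and Cd200, and WT replicate 3 for Cd274. WT replicate 1 was the lowest WT library for 6. Values relative to Foxp3 in the same library were taken as a level per Treg transcript. Ctla4 was 106, 127 and 113% of Foxp3 CPM in KO libraries and 79.3, 90.2 and 94.4% in WT libraries. Pdcd1 was 5.68, 5.56 and 5.80% in KO libraries and 4.605, 5.26 and 4.79% in WT libraries. Cd101 was 5.49, 5.36 and 4.83% in KO libraries and 4.29, 4.54 and 4.81% in WT libraries. For these 3 genes the groups did not overlap, though Cd101 in KO replicate 6 and WT replicate 3 nearly met. On the CPM scale 13.7% of all genes tested were non-overlapping and higher in KO. The same share on the Foxp3 scale was not computed, so no excess is read from these 3 genes.

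Cd274 was 15.6, 15.8 and 13.2% of Foxp3 in KO libraries and 12.3, 12.6 and 15.0% in WT libraries, which overlapped, as did the other 6 genes. The log2 difference of the ratio, KO minus WT, was 0.39 for Ctla4, 0.22 for Pdcd1, 0.20 for Cd101 and 0.16 for Cd274. It was -0.41 for Btla, with 28.1, 32.9 and 26.7% in KO libraries and 47.4, 29.5 and 41.5% in WT libraries. An exact permutation test over 3 against 3 libraries, two-sided, gave p = 0.1 for Ctla4, Pdcd1 and Cd101, the smallest it can give, and 0.333 after adjustment over the 10 genes. Lag3 and Cd200 had ratios near equal in the groups, at -0.034 and -0.016, and turned to 0.012 and 0.030 when the T lineage sum was the denominator.

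**Figure D4:**
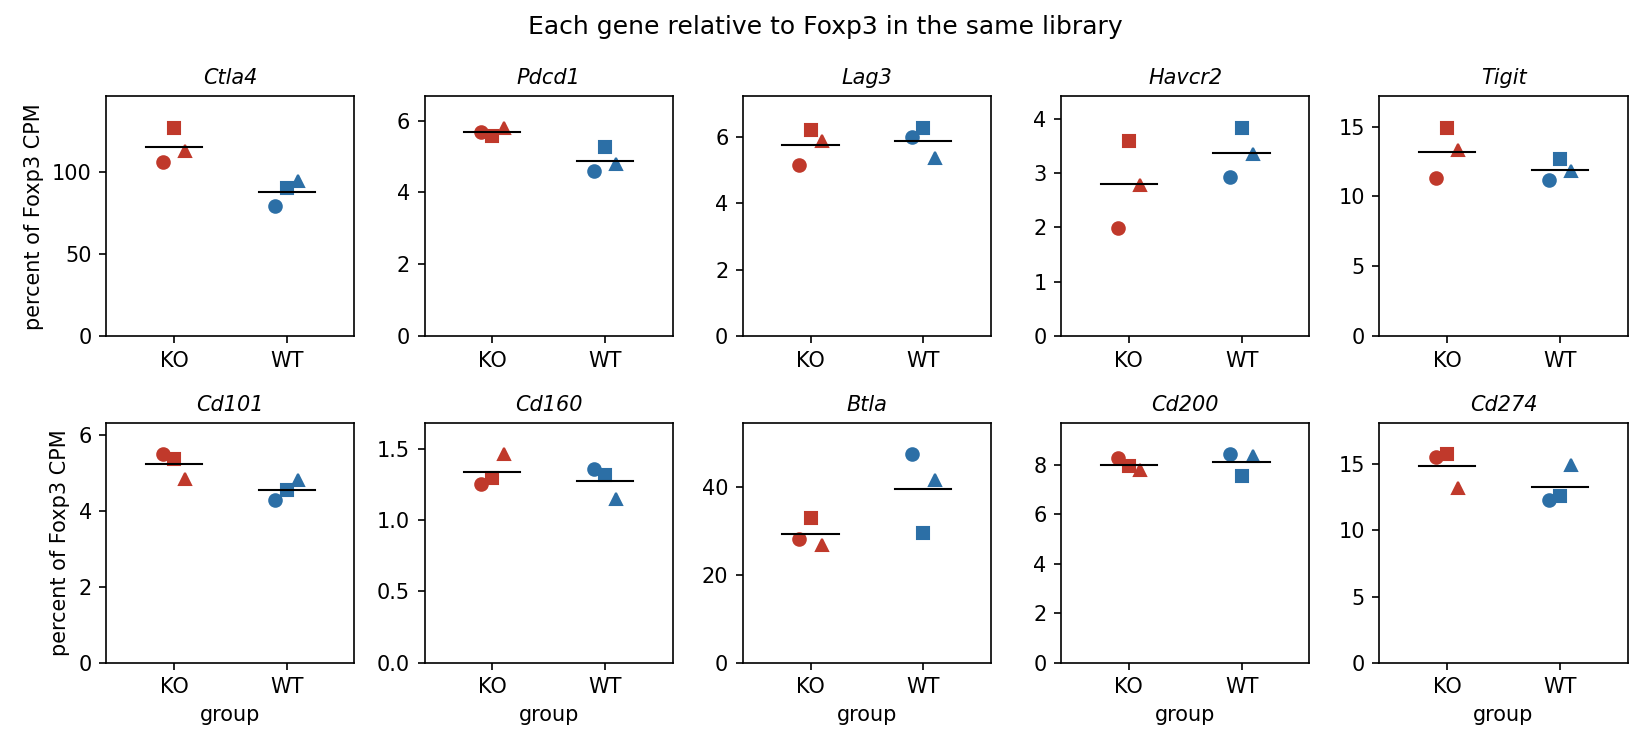
Each gene's CPM as a percent of Foxp3 CPM in the same library, KO left of WT, 1 point per library with the group mean. Ctla4 lies at 106 to 127% in KO and 79.3 to 94.4% in WT, while Btla overlaps through WT replicate 2 (29.5%).

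The wider pathway was described by 4 lists, chosen with earlier results of these data known and read against the 3.68% of all genes called higher and 2.83% called lower. An unadjusted edgeR p under 0.05 was far more common over all genes than a call, as the rank of Cd200 shows. Of 13 other co-inhibitory genes tested, 3 were called higher and 0 lower in KO, and their median log2 fold change was 0.03. Cd96, a further receptor of CD155, had 225, 202 and 223 CPM in KO libraries and 162, 173 and 164 CPM in WT libraries. Its log2 fold change was 0.38 (SE 0.06, edgeR adjusted p = 0.00227), called with any 1 library left out. It was not called with the B cell score (0.25, adjusted p = 0.397). With WT replicate 2 as the only WT library the value of Cd96 was 0.32. Entpd1 and Adora2a, the ectonucleotidase CD39 and an adenosine receptor, both of the adenosine pathway, rose by 0.35 and 0.33 (adjusted p = 0.0209 and 0.0216). Each of these lost its call without KO replicate 5 or 6 or WT replicate 1 or 3, at adjusted p-values up to 0.106 for Entpd1 and 0.102 for Adora2a. At an unadjusted p under 0.05 edgeR gave 2 lower, DESeq2 called 2 lower and limma-voom 1. The 3 higher calls fell to 1 without KO replicate 5 or 6 or WT replicate 1 or 3, and without WT replicate 2 there were 3 lower calls. Of 13 ligands and counter-receptors tested, Cd28 alone was called higher and 0 lower, and the median was 0.00. At an unadjusted p under 0.05 there were 5 higher and 1 lower, and DESeq2 and limma-voom called 0 lower. Without WT replicate 2 there were 3 higher calls, and without WT replicate 3 none.

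Of 20 signalling and trafficking partners, 0 were called higher and 2 lower, both phosphatases that inhibitory receptors recruit. At an unadjusted p under 0.05 edgeR gave 0 higher and 3 lower, and DESeq2 and limma-voom each called 0 higher and 2 lower. Ptpn6, which encodes SHP-1, had 303, 287 and 305 CPM in KO libraries and 421, 332 and 396 CPM in WT libraries, which is -0.36 on the log2 scale (SE 0.08, adjusted p = 0.0206 in edgeR). Inpp5d, which encodes the lipid phosphatase SHIP-1, was at -0.19 (SE 0.05, adjusted p = 0.0415). Both are also made by B cells, and WT replicates 1 and 3 were highest for Ptpn6 as for the B cell markers. With the B cell score added Ptpn6 was at -0.10 and Inpp5d at -0.13, neither called. The part of B cells in these levels was not tested. With WT replicate 2 as the only WT library both values were -0.15 and neither was called. Both calls were lost when any library but WT replicate 2 was left out, at adjusted p-values up to 0.0988 for Ptpn6 and 0.181 for Inpp5d.

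Of 23 transcription factors linked to exhaustion and effector Tregs, 10 were called higher and 0 lower, with a median of 0.26. At an unadjusted p under 0.05 edgeR gave 12 higher and 0 lower, and DESeq2 and limma-voom each called 10 higher and 0 lower. The 10 calls fell to 4 without KO replicate 5, to 5 without KO replicate 6 or WT replicate 3, to 6 with WT replicate 2 as the only WT library, and to 2 with the B cell score. Irf1, an interferon-induced factor, had 474, 447 and 441 CPM in KO libraries and 293, 342 and 307 CPM in WT libraries. Irf1 was at 0.53 (SE 0.06, edgeR adjusted p = 0.000354). Nfil3, a factor that induces Havcr2 in mouse T helper cells, had 49.6, 49.2 and 46.9 CPM in KO libraries and 15.6, 24.2 and 19.1 CPM in WT libraries, with a log2 fold change of 1.31 (SE 0.13, adjusted p = 0.000741). The AP-1 subunits Fos and Jun, early genes of cell activation and of tissue handling, were at 0.98 and 0.66 (adjusted p = 0.00138 and 0.00206). These 4 were called with any 1 library left out. With the B cell score Fos and Nfil3 were called, while Irf1 (0.37, adjusted p = 0.159) and Jun (0.47, adjusted p = 0.158) were not. Foxp3, in the same list, was at 0.15 and did not pass (adjusted p = 0.160).

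Genes with the most similar profiles were found by the root-mean-square difference of centred log2 CPM over the 6 libraries, among 11217 protein-coding genes. Nearest to Ctla4 were Clstn1 at 0.0423, Il15ra at 0.0448 and Hsph1 at 0.0482, against a median over genes of 0.310. Nearest to Pdcd1 were Mapre3 at 0.0497, She at 0.0519 and Cyp4v3 at 0.0521 (median 0.245). Nearest to Cd274 were Slc36a4 at 0.0340, Adam22 at 0.0467 and Tmem65 at 0.0472 (median 0.220). No other of the 10 genes was among these nearest, and 6 libraries in 2 groups let many genes lie close.

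**Figure D5:**
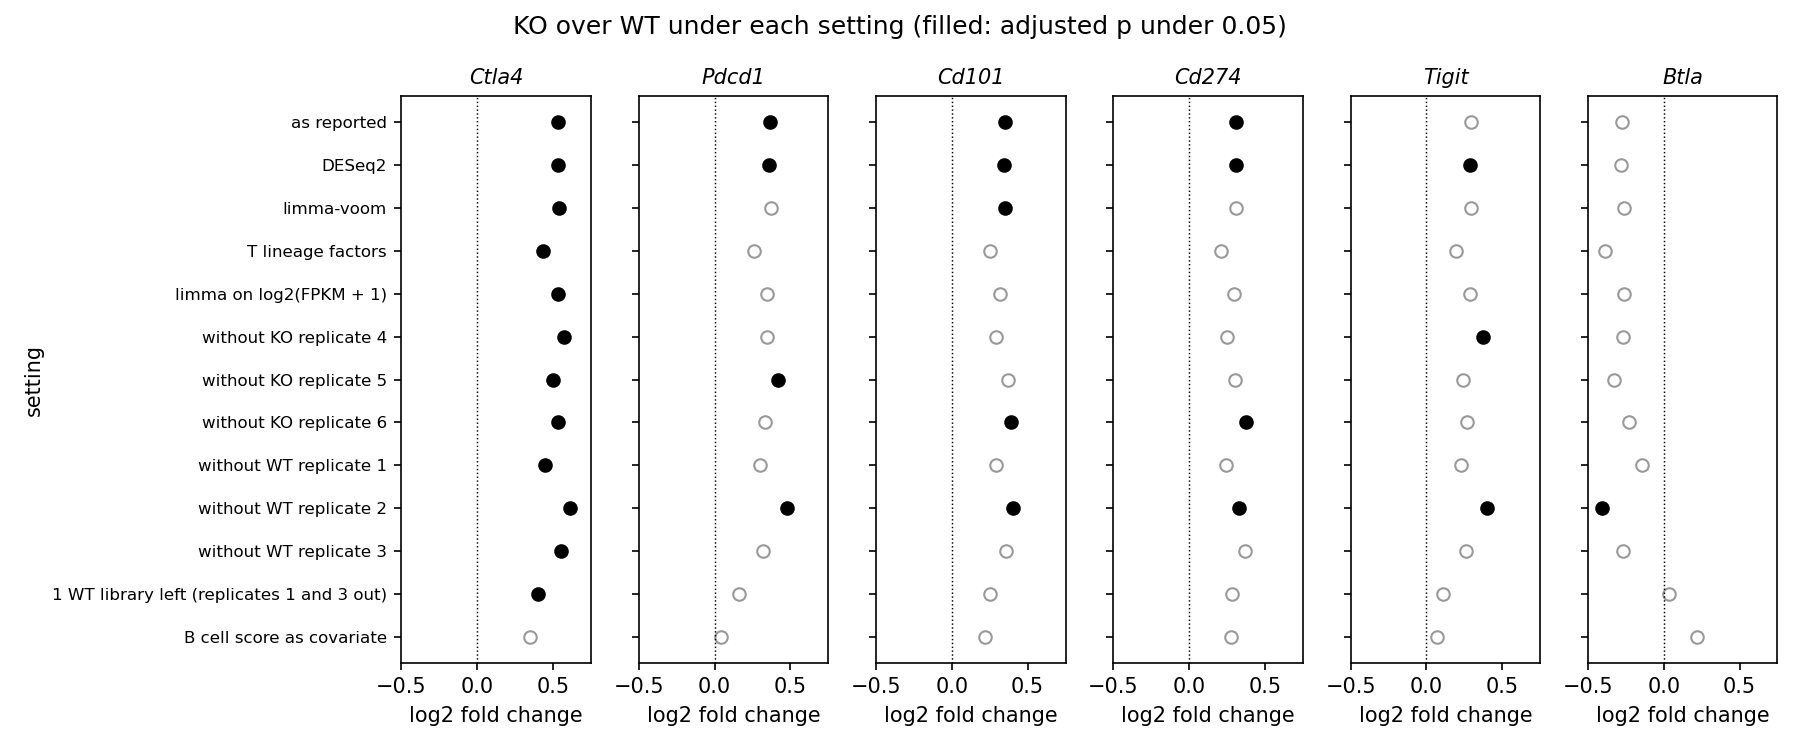
Log2 fold change, KO over WT, of Ctla4, Pdcd1, Cd101, Cd274, Tigit and Btla under the reported and other processing settings (rows), filled where the adjusted p was under 0.05. Ctla4 is filled under each setting shown but the B cell score (0.35), while Btla crosses 0 with 1 WT library left (0.03) and with the B cell score (0.22).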

How the data were processed

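Per gene, the authors deposited raw counts by Ensembl ID and, by symbol, normalized counts (a signal that sums to no set total) and FPKM. The submitters' processing notes name bcl2fastq, STAR 2.4.2a, DESeq2 and build GRCm38; how reads were counted, with which annotation and whether by strand, is not given there or in the labels. Dividing raw counts by 1 factor per library gave the deposited normalized counts for 99.87% or more of genes above 50 counts (within 1e-06), and FPKM was proportional to them for 99.979% of 9335 genes. GENCODE M21 gave symbols and positions for 35412 of 37187 IDs. The unmatched 1775 IDs, 0.260% to 0.308% of counts, stayed in the tests.

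The main test on raw counts was edgeR 4.0.16 in R 4.3.3 (filterByExpr, TMM, robust glmQLFit in legacy form, glmQLFTest), with CPM on the TMM scale. Levels between genes used FPKM. Motifs were searched on both strands in RefSeq windows. Alternatives were DESeq2 1.42.0, limma 3.58.1 (voom, or on log2 values), other factors, filters, thresholds and denominators, a B cell score in the model, and fewer libraries. With WT replicates 1 and 3 out, the variance of the lone WT library is taken from KO. Tested on simulated data (13626 genes, 200 changed, 10 draws), a 1.25-fold change was found in 20.6% of genes, 1.5-fold in 60%, 2-fold in 74.4% and 4-fold in 94.2%, while 11.4% of calls were false. In the data 886 genes were called, so the simulated share of false calls need not hold there. Pairs of libraries within a group differed beyond sampling noise (chi-square over degrees of freedom of 4.81 to 13.4). Counting error of the 10 genes was 0.780% to 6.89%.

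The 10 genes, the lists and the alternatives were chosen with earlier results of these data known. Named were all 10 genes, up to 4 called members of each list in each direction by smallest p, Foxp3, and the 3 genes nearest in profile to Ctla4, Pdcd1 and Cd274. Partner genes (Cd80, Cd86, Cd226, Tnfrsf14, Pdcd1lg2), Ranbp6 and the overlapping gene Pdzk1 were named after their values were seen. AC119228.1, which had no values, was named for its position.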

Additional observations from a re-analysis of the deposited data

How the results depend on the processing

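Ctla4 was called higher in KO under each of the 21 alternatives except the B cell score. The alternative with a single WT library takes its spread from the KO libraries alone. Of the 21, Pdcd1 kept its call in 10, Cd274 in 10 and Cd101 in 11, all with positive values. Scaling to T lineage transcript moved the median of all genes to -0.10. It left 271 calls higher and 864 lower, against 501 and 385 with TMM factors. The log2 fold changes under this scaling were 0.43 for Ctla4, 0.26 for Pdcd1, 0.25 for Cd101 and 0.21 for Cd274. Relative to that median they were 0.54, 0.37, 0.35 and 0.31, which undoes the scaling and so carries no support of its own. Upper-quartile factors split the calls 593 higher and 323 lower. The 4 members called higher became 1 under T lineage factors, 2 in limma-voom, 1 on log2(FPKM + 1) or log2(FPKM + 0.1), 1 with a single WT library, 0 with the B cell score, 1 at an adjusted p under 0.01, and 1 to 5 with 1 library left out. Members called lower, 0 as reported, were 1 with no filter and 0 to 1 with 1 library left out. The 886 calls over all genes became 1645 with no filter, 397 and 411 on the FPKM scales (pseudocounts of 1 and 0.1), 282 with a single WT library, 77 with the B cell score, 275 and 1412 at thresholds of 0.01 and 0.10, and 367 to 1364 with 1 library left out. Other co-inhibitory genes called higher (3) became 1 under T lineage factors, on both FPKM scales and at 0.01, 0 with a single WT library or the B cell score, and 1 to 3 with 1 library left out. Those called lower (0) became 2 in DESeq2, 1 in limma-voom, with a single WT library and at 0.10, and 0 to 3 with 1 library left out. Ligands and counter-receptors called higher (1) became 3 with no filter and at 0.10, 0 with a single WT library or the B cell score, and 0 to 3 with 1 library left out. Those called lower (0) became 1 under T lineage factors and with no filter. Signalling partners called lower (2) became 1 with upper-quartile factors, 0 on both FPKM scales, with a single WT library, with the B cell score and at 0.01, and 0 to 2 with 1 library left out. Transcription factors called higher (10) became 6 with a single WT library, 2 with the B cell score, 4 at 0.01, and 4 to 9 with 1 library left out. The sign of the log2 fold change turned for Havcr2 (-0.32 to 0.034 with 1 library left out, positive at 0.034 without KO replicate 4 and 0.023 without WT replicate 2), with a single WT library for Lag3 (-0.078) and Btla (0.034), and with the B cell score for Lag3 (-0.11), Cd160 (-0.025) and Btla (0.22). The ratio of Lag3 turned to 0.012 and that of Cd200 to 0.030 with the T lineage denominator. The cause of these shifts was not tested. No paired analysis was possible because the replicate numbers run from 1 to 6 and none is shared between the groups. With 3 libraries a group, a member that did not pass is not shown to be equal in the groups.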

Other observations

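A pair of genes of the co-inhibitory list that are also B cell receptors, named after their values had been seen, spread widely between the WT libraries. Siglecg had 17.6, 25.1 and 15.0 CPM in KO libraries and 131, 36.7 and 95.02 CPM in WT libraries, and did not pass (edgeR adjusted p = 0.135). Cd72 had 44.9, 43.2 and 41.2 CPM in KO libraries and 86.1, 558 and 73.0 CPM in WT libraries (edgeR adjusted p = 0.277), so WT replicate 2, near the KO libraries in the summed B cell markers, was by far the highest for Cd72. Ceacam1, of the same list, was also named after its values had been seen. It had 2.24, 2.76 and 1.24 CPM in KO libraries and 13.9, 4.16 and 9.30 CPM in WT libraries. Its log2 fold change was -2.13, and it did not pass (edgeR adjusted p = 0.0970).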
